A study of Mus musculus with 39 samples.

Results

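Adgrf1 (ENSMUSG00000041293) was followed through 39 mouse livers as 1 gene of the 55416 in the count table and of the 15296 that were tested. It was chosen by its measured diet differences, since its level fell on Western diet in both genotypes in an earlier analysis of these livers, so those differences are given as a description without a test. The livers came from male mice on the C57BL/6NTac background, either homozygous for the CD163tm1(KOMP)Vlcg allele (knockout) or wildtype littermates, all bred from heterozygous parents. The labels give 5 wildtype and 4 knockout mice on chow with plain water, and 15 mice of each genotype on Western diet with fructose in the water. Feeding began at 6 weeks of age and lasted 8 weeks, and the fructose came with the diet, so their effects cannot be told apart. CD163 is a macrophage receptor for complexes of haemoglobin and haptoglobin. Each liver gave 1 RNA sequencing library, and p values measure the spread between mice. The labels name no cell type to which the knockout is restricted.

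Adgrf1, formerly Gpr110, encodes an adhesion G protein-coupled receptor. Such receptors carry a long extracellular part that cleaves itself near the membrane and leaves a tethered peptide that can activate the receptor. The best described ligand of ADGRF1 is synaptamide, the ethanolamide of docosahexaenoic acid, and the receptor can raise cyclic AMP through Gs. In mouse hepatocytes it has been linked to lipid storage and to Scd1, the stearoyl-CoA desaturase that makes monounsaturated fatty acids. Srebf1 encodes SREBP1, a transcription factor that drives fatty acid synthesis and has Scd1 among its targets.

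The RefSeq promoter of Adgrf1 is shown to place the gene and the letters around its start. It spans 250 bases before to 50 bases after the transcription start on the plus strand, chr17:43270097-43270396 in GRCm38.p6, whereas the counts refer to GRCm39. Capitals mark the single match to any of 5 motifs searched on both strands.
Adgrf1 promoter: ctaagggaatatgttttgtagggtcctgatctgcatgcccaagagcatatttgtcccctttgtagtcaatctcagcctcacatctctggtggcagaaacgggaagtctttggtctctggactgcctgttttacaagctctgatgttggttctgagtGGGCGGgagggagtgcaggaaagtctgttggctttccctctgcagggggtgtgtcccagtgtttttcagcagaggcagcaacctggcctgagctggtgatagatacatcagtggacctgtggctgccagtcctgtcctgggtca
The match is a GC box (GGGCGG), which 35.7% of 32851 RefSeq promoters of this length also hold. The window had 0 matches to the sterol regulatory element TCACNCCAC (in 1.24% of promoters), the E-box CACGTG (7.15%), the CCAAT box CCAAT (37.4%) and the TATA box TATAAA (13.6%). The 3 Srebf1 promoters of the table had 0 matches to TCACNCCAC as well, and 2 of them held GC boxes.

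Library totals lay between 8578865 and 30438808 counts. Levels are given as CPM, a gene's count relative to the scaled size of its library. Cd163 was at 2.59 to 15.8 CPM in the wildtype livers and at 0 to 0.746 CPM in the knockout livers, without overlap. By the diet genes, 4 livers went against their labels. A scale was built without these 4 livers, from 529 genes that differed at least 2-fold between the diets in the others. Adgrf1, Scd1 and Srebf1 were not among them. On this scale the mean of the other chow livers is 0 and that of the other Western diet livers is 1. Wildtype chow A (0.913) and knockout chow D (0.986) stood with the Western diet livers, and wildtype Western diet A (0.198) and knockout Western diet M (0.125) stood with the chow livers. The other 7 chow livers lay between -0.0659 and 0.0847, and the other 28 Western diet livers between 0.824 and 1.25. Because the scale was made from these livers, their own separation on it was set in advance. All 4 keep their labels here. Since they were picked by their diet genes, leaving them out favours differences between the diets. Comparisons between groups and the relations to Scd1 and Srebf1 are given with and without them, and patterns over 28 Western diet livers are given without them. Markers of hepatocytes summed to 44536 to 80495 CPM over all groups, with 8 of 8 tested. Of 8 pancreatic acinar and 6 kidney tubule markers, 1 each was high enough to test, Cela1 and Lrp2.

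On chow, Adgrf1 was a low but well counted transcript. The 5 wildtype livers were at 0.724 (A), 10.7 (B), 5.78 (C), 7.32 (D) and 5.59 (E) CPM, from 10 to 173 counts. The 4 knockout livers were at 12.5 (A), 9.02 (B), 13.5 (C) and 0.648 (D) CPM, from 12 to 199 counts. In each genotype 1 liver was thus far below the rest, and it was the liver whose other diet genes read as Western diet. The wildtype mean was 6.01 ± 3.59 CPM (SD, n = 5) and the knockout mean 8.92 ± 5.84 CPM (n = 4). Without wildtype A and knockout D they were 7.34 ± 2.34 CPM (n = 4) and 11.7 ± 2.34 CPM (n = 3).

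On Western diet, Adgrf1 was near the limit of what these libraries resolve. The 15 wildtype livers lay between 0.396 and 2.61 CPM with a median of 0.890 CPM, from 7 to 43 counts. The 15 knockout livers lay between 0 and 4.55 CPM with a median of 0.753 CPM, from 0 to 66 counts. The highest value of each genotype was wildtype A (2.61 CPM) and knockout M (4.55 CPM), the livers that stood with chow. Wildtype K (2.12 CPM) and knockout H (2.45), I (2.40) and O (2.53 CPM) came next. Knockout B had 0 counts, which allows up to 0.355 CPM at 3 counts of its total, and its exact 95% interval reaches 0.436 CPM. Intervals and limits cover counting error only, because no molecular identifiers separate molecules from their copies.

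**Figure D1:**
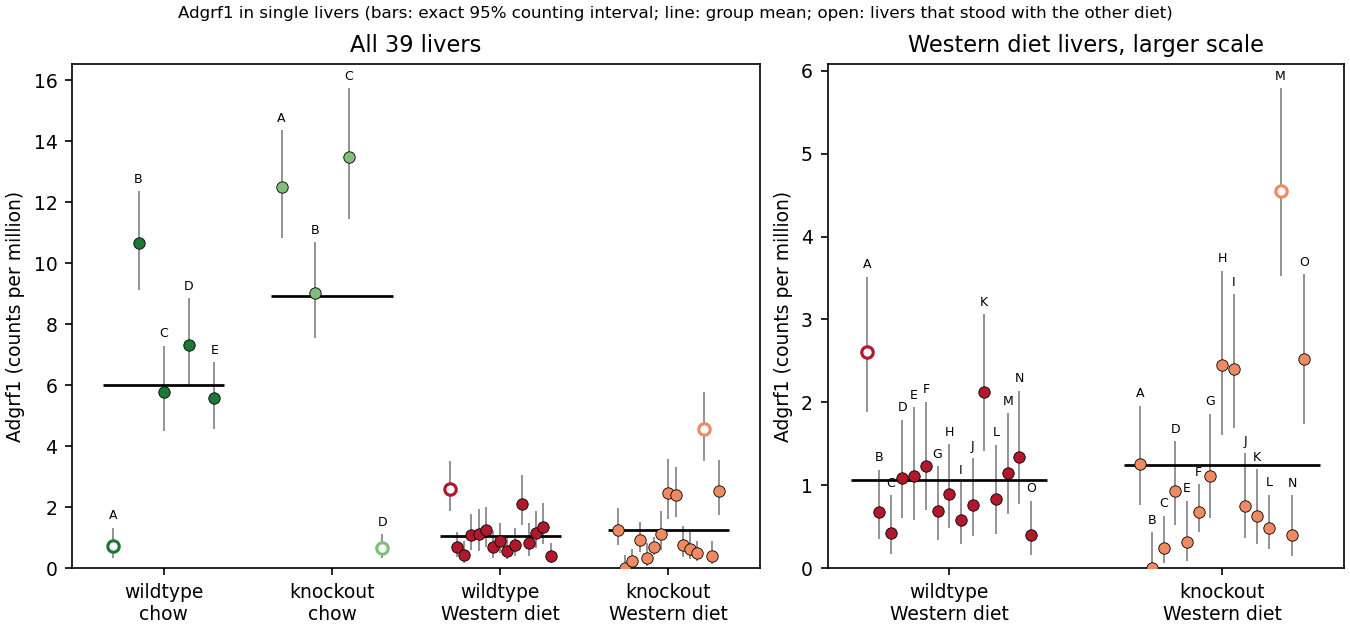
Adgrf1 in CPM for each liver, by genotype and diet (left, all 39 livers; right, the Western diet livers on a larger scale). Points are livers, with replicate letters for chow on the left and for Western diet on the right, bars are exact 95% counting intervals, horizontal lines are group means and open points are the 4 livers that stood with the other diet. The filled chow points sit between 5.59 and 13.5 CPM and the filled Western diet points between 0 and 2.53 CPM.

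Between the diets, the wildtype mean fell from 6.01 ± 3.59 to 1.06 ± 0.608 CPM (n = 15). The knockout mean fell from 8.92 ± 5.84 to 1.25 ± 1.23 CPM (n = 15). The chow mean was 5.67 times the Western diet mean in wildtype and 7.14 times in knockout mice. In the edgeR fit, the log2 fold change was -2.51 (SE 0.50) in wildtype and -2.83 (SE 0.52) in knockout mice. With every liver kept, the diets overlapped in both genotypes. Without the 4 livers, 14 of 14 Western diet livers of each genotype were below every chow liver of that genotype. The 4 were picked by their diet genes, which favours this separation, and the share of all genes that separate in this way was not counted. The chow means were then 7.73 and 11.5 times the Western diet means, and the fitted changes were -2.96 (SE 0.38) and -3.51 (SE 0.40). The rule used these contrasts, so nothing is read from the calls. Of 15296 genes, edgeR called 1.39% between the diets in wildtype mice and 0.00654% in knockout mice. The knockout share is 1 gene, Adgrf1 itself. Leaving out the 4 livers gave shares of 8.66% and 17.2% of 15461 genes. Single chow livers moved these counts: 0 genes were called in wildtype mice without wildtype B, against 212 with all, and 1408 in knockout mice without knockout D, against 1. In bulk liver, fewer cells that express the gene and less RNA per cell cannot be told apart.

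The 4 livers that stood apart carried the Adgrf1 level of the other diet in part. Wildtype chow A and knockout chow D, at 0.724 and 0.648 CPM, lay within the range of the other 28 Western diet livers (0 to 2.53 CPM). Wildtype Western diet A and knockout Western diet M, at 2.61 and 4.55 CPM, lay above all 28 and below the lowest of the other 7 chow livers (5.59 CPM). For wildtype A the gap is within counting error. Its exact 95% interval, 1.89 to 3.51 CPM, overlaps that of knockout Western diet O, 1.74 to 3.55 CPM. The diet scale values of wildtype A and knockout M, 0.198 and 0.125, likewise lay above those of the 7 chow livers.

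Within the Western diet livers, the diet scale had a negative relation to Adgrf1 in knockout mice. Without knockout M, Pearson's r was -0.57 (permutation p = 0.0327) and Spearman's rho -0.61 (permutation p = 0.0229) over 14 knockout livers, and r was -0.70 without A and C, the livers farthest from the median of the scale. In 14 wildtype livers, r was -0.33 (permutation p = 0.247) and rho -0.42 (permutation p = 0.133), and r was -0.41 without G and M. Neither passed after adjustment over 24 such relations (Benjamini-Hochberg adjusted p of rho 0.274 in knockout and 0.453 in wildtype livers).

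**Figure D2:**
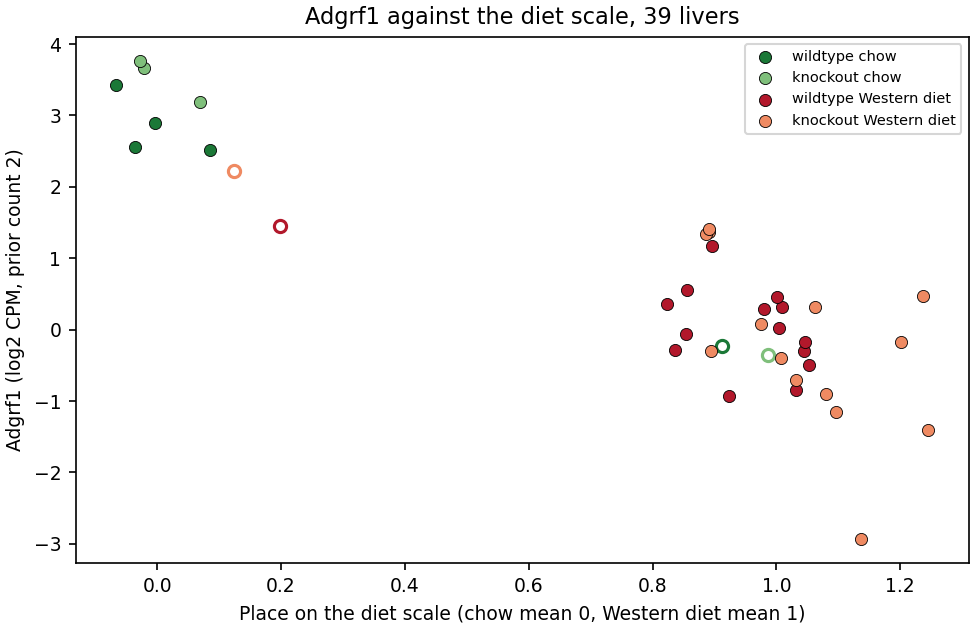
Adgrf1 (log2 CPM, prior count 2) against the place of each of 39 livers on the diet scale. The scale was made from the filled points, whose chow mean is 0 and whose Western diet mean is 1. Points are livers coloured by labelled group and open points are the 4 livers that stood with the other diet: the open chow points lie at 0.913 and 0.986, among the Western diet points, and the open Western diet points lie at 0.198 and 0.125, next to the chow points.

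The genotype comparison asks whether loss of CD163 shifts Adgrf1 within a diet, and the choice of the gene did not use it. The Western diet means given above, 1.06 CPM for wildtype and 1.25 CPM for knockout livers, lay within each other's spread. The edgeR log2 fold change, knockout over wildtype, came to 0.24 (SE 0.43), with a Benjamini-Hochberg adjusted p of 0.975 over all tested genes, where 0.00654% of genes were called. The mean of log2 CPM pointed the other way, -0.0509 in knockout against 0.103 in wildtype livers (permutation p = 0.693 over 100000 resamples, 2-sided, and 0.547 without wildtype A and knockout M). Of 15 knockout livers, 6 were above the wildtype mean and 9 below it. In the fit without the 4 livers that stood with the other diet, the change was 0.10 (SE 0.33, edgeR adjusted p = 0.970), where 0.00647% of genes were called.

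The knockout livers were more spread out than the wildtype livers. Knockout livers without M had an SD of 0.852 CPM, which is 3.16 times the SD that counting error alone gives (0.270 CPM). Wildtype livers without A had an SD of 0.447 CPM, 1.71 times their counting SD (0.261 CPM). Among these, 3 knockout livers were above every wildtype liver and 3 were below every wildtype liver. A difference in spread was not tested.

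On chow it came to 0.56 (SE 0.66, edgeR adjusted p = 1.00), where 0.00654% of genes were called, and 0.00647% without the 4 livers. The exact 2-sided permutation p of log2 CPM was 0.619 over 126 splits. Without wildtype A and knockout D, the 3 knockout livers (9.02 to 13.5 CPM) were all above the wildtype mean of 7.34 CPM, and the highest wildtype liver, B, was above knockout B. In the fit without the 4 livers, that difference was 0.64 (SE 0.53, edgeR adjusted p = 0.928). Its exact permutation p without wildtype A and knockout D was 0.114, where 35 splits allow no less than 0.0571. In order of mean level the groups ran knockout chow, wildtype chow, knockout Western diet and wildtype Western diet. By median the Western diet groups changed places, and neither pair of neighbours on the same diet was separated beyond its spread. The fall in knockout mice differed from that in wildtype mice by -0.32 (SE 0.79) on the log2 scale, and by -0.54 (SE 0.62) without the 4 livers.

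Scd1 and Srebf1 moved against Adgrf1 between the diets. In wildtype mice, Srebf1 rose from 367 ± 162 CPM on chow to 954 ± 336 CPM on Western diet (log2 fold change 1.38, SE 0.29, edgeR adjusted p = 0.0198), and 14 of 15 Western diet livers were above every chow liver. Scd1 rose from 5895 ± 3229 to 17618 ± 9150 CPM (1.58, SE 0.42, edgeR adjusted p = 0.0492), and 10 of 15 livers were above every chow liver. Each of these calls was lost when single chow livers were left out: Srebf1 ranged from 1.23 to 1.65 and lost its call without wildtype B, C, D or E (adjusted p = 0.0742, 0.103, 0.0850 and 0.0503), and Scd1 ranged from 1.40 to 1.94 and lost it without wildtype B to E or knockout A or B (adjusted p up to 0.163). For knockout mice, Srebf1 was at 473 ± 315 and 950 ± 274 CPM (1.01, edgeR adjusted p = 0.124) and Scd1 at 10289 ± 10727 and 21293 ± 8621 CPM (1.05, edgeR adjusted p = 0.204). Knockout chow D, with 929 CPM of Srebf1 and 26197 CPM of Scd1, held the knockout chow means up. In the fit of the other 35 livers, Srebf1 rose by 1.70 and 1.66 and Scd1 by 2.00 and 2.19 in wildtype and knockout mice (edgeR adjusted p = 6.44e-06, 8.71e-05, 4.90e-04 and 8.17e-04). That fit called 8.66% of all genes in wildtype and 17.2% in knockout mice. No Western diet liver of the 35 overlapped a chow liver in either gene, and the share of all genes without overlap was not counted. Livers were left out for the level of their diet genes, which favours both the test and the separation.

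Within each Western diet group, livers with more Srebf1 had less Adgrf1. Over the 15 knockout livers, Pearson's r of the log2 CPM values was -0.72 (permutation p = 0.00300) and Spearman's rho -0.78 (permutation p = 9.70e-04). After adjustment over the 4 relations of Adgrf1 to Srebf1 and Scd1, the Benjamini-Hochberg p values were 0.0120 and 0.00388. Without liver M, r was -0.64 (adjusted permutation p = 0.0490) and rho -0.73 (adjusted permutation p = 0.0163). Without C and M, the livers farthest from the Srebf1 median, r was -0.60 (permutation p = 0.0274, adjusted 0.0650) and rho -0.67 (permutation p = 0.0144, adjusted 0.0427). The livers at the ends show the pattern: knockout H had 681 CPM of Srebf1 and 2.45 CPM of Adgrf1, whereas knockout C had 1396 and 0.247 CPM.

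Over the 15 wildtype Western diet livers, Adgrf1 and Srebf1 had r = -0.60 (permutation p = 0.0187) and rho = -0.68 (permutation p = 0.00645), with adjusted values of 0.0367 and 0.0129. Without liver A, r was -0.44 (permutation p = 0.117) and rho -0.61 (permutation p = 0.0235, adjusted 0.0470). Without A and J, the livers farthest from the Srebf1 median, r was -0.59 (permutation p = 0.0325, adjusted 0.0650). Wildtype J had the highest Srebf1 of all, 1976 CPM, at 0.759 CPM of Adgrf1.

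The relation to Scd1 was weaker without the livers at its ends. Leaving these out also narrows the range of Scd1 and leaves 13 livers, so whether the relation rests on them cannot be told. In wildtype livers r was -0.56 (permutation p = 0.0301) and rho -0.60 (permutation p = 0.0205), with an adjusted p of 0.0367 for r. It was -0.45 without A (permutation p = 0.107) and -0.27 without A and C, the livers farthest from the Scd1 median (permutation p = 0.383). In knockout livers r was -0.55 (permutation p = 0.0367) and rho -0.48 (permutation p = 0.0757). It was -0.35 without M (permutation p = 0.219) and -0.15 without H and M (permutation p = 0.626). The chow groups, with 5 and 4 livers, are too small for such a relation.

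**Figure D3:**
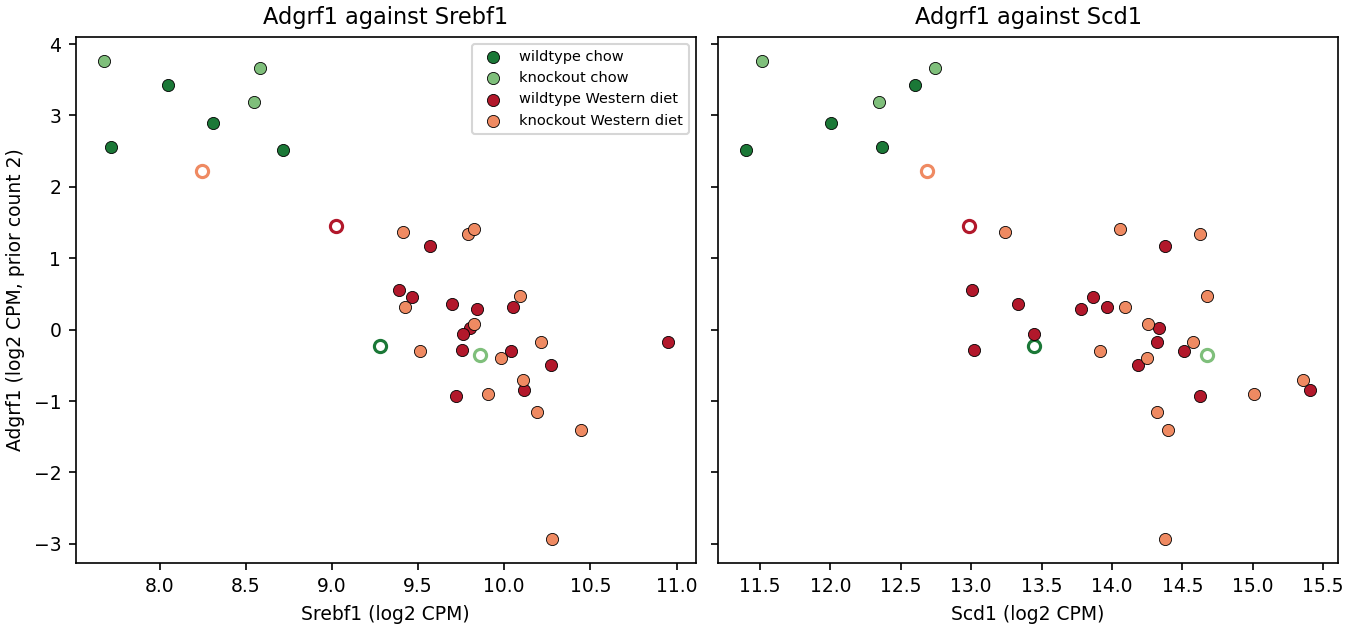
Adgrf1 against Srebf1 (left) and Scd1 (right), all in log2 CPM with a prior count of 2, for 39 livers coloured by labelled group. Open points are the 4 livers that stood with the other diet. Among the filled points, chow and Western diet livers do not overlap in Adgrf1 within a genotype. Over the filled Western diet points, r with Srebf1 is -0.44 in wildtype (permutation p = 0.117) and -0.64 in knockout livers (permutation p = 0.01225). With the open Western diet points it is -0.60 and -0.72.

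Depth moved with Adgrf1 in wildtype livers. Over the 14 wildtype Western diet livers without A, Adgrf1 fell with the log2 total count (r = -0.79, permutation p = 6.80e-04; rho = -0.85, permutation p = 2.40e-04, adjusted 0.00576 over 24 relations), and r was -0.87 without E and I, the livers farthest from the median depth. Totals there ran from 11021915 to 18909180. In 14 knockout livers, r was 0.0936 and rho -0.13 (permutation p = 0.750 and 0.650), over totals of 8578865 to 30438808, and r was -0.48 without B and F. With the log2 total count taken out of both genes, r with Srebf1 was -0.58 (permutation p = 0.0395) over all 15 wildtype and -0.72 (permutation p = 0.00227) over all 15 knockout livers. Without A and M, it was -0.28 (permutation p = 0.324) in the 14 wildtype and -0.64 (permutation p = 0.0139) in the 14 knockout livers. With Scd1 it was -0.45 (permutation p = 0.0912) and -0.58 (permutation p = 0.0248) over 15 livers each, and -0.18 (permutation p = 0.535) and -0.39 (permutation p = 0.169) without A and M. Marker means of 8 cell types, tested against Adgrf1 in the same livers, had adjusted permutation p values of rho of 0.453 or more in both genotypes. These means use tested markers only, 3 of 8 for neutrophils, 5 of 8 for erythroid cells and 3 of 7 for adipocytes. For these cell types the means are thus a poor gauge. No marker was called between the diets with every liver kept. In the fit of 35 livers, 2 of 8 hepatocyte markers were lower in knockout mice and 1 in wildtype mice, Lrat of stellate cells and Cfd of adipocytes were higher in both genotypes, and their part in the Adgrf1 levels was not tested.

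Set against all genes, the relation to Srebf1 stood near the edge and that to Scd1 did not. Over the 28 Western diet livers, centred on the genotype means, r with Adgrf1 was -0.51 for Srebf1, and 0.588% of the other 15295 genes were as low or lower. For Scd1 it was -0.34, and 6.26% of genes were as low or lower. The middle 90 in 100 genes, between the 5th and the 95th percentile, ran from -0.36 to 0.36. These values describe shared livers and carry no p.

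The genes with the pattern most like Adgrf1 over these 28 livers, among 11824 with a mean of at least 1 CPM, reached r values of 0.67 and -0.65. The highest r belonged to Ppp1r35 (0.67), Gpcpd1, which breaks down glycerophosphocholine (0.67), Dcps, a scavenger decapping enzyme (0.63), Mta1, a subunit of a chromatin remodelling complex (0.61), Nosip (0.60) and Rps24-ps3 (0.60). Rps24-ps3 is a pseudogene copy of a ribosomal protein gene, so its reads may belong to the parent gene. For Ppp1r35 the value was 0.15 within wildtype and 0.76 within knockout livers, and for Nosip it was -0.13 and 0.76. Mta1 had 0.65 and 0.61, and Dcps 0.59 and 0.72. The lowest r belonged to Stx12, a syntaxin of endosomes (-0.65), Tax1bp3 (-0.64), Rbm34 (-0.64), Ccdc91 (-0.64), Laptm4b, a lysosomal membrane protein (-0.63), and Dnajb4, a chaperone (-0.61).

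Among 23 genes of SREBP1 and fatty acid synthesis, 16 had a negative r with Adgrf1 over the 28 livers (69.6%, median -0.18), beside 49.2% of all tested genes (median 0.0043). This was not particular to the list. The share was 87.5% for long-chain polyunsaturated fatty acid synthesis, 85.7% for N-acylethanolamine metabolism and 65.5% for G proteins and cyclic AMP signalling. In the adhesion receptor family it was 38.9%. Fasn, the fatty acid synthase, was at -0.33 and Insig1, a sterol-dependent brake on SREBP processing, at -0.31. Lpin1, a phosphatidate phosphatase, was at 0.51, and Mlxipl, which encodes the carbohydrate sensor ChREBP, at 0.32.

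Between the diets, 3 of these 23 rose in wildtype mice with every liver kept, Srebf1, Scd1 and Agpat2, an acyltransferase of triglyceride synthesis (0.45, edgeR adjusted p = 0.0466), beside 0.771% of all genes called higher. Agpat2 lost its call without any 1 of the wildtype chow livers or knockout chow A (0.41 to 0.49, adjusted p up to 0.112). In knockout mice 0 of 23 were called, beside 0% of all genes called higher. Thrsp was at 1.40 in wildtype and 0.90 in knockout mice, Insig2 at 0.98 and 0.99, Acaca, acetyl-CoA carboxylase, at 0.91 and 0.75, Fasn at 1.13 and 0.43, Elovl6 at 1.05 and 0.57 and Gpam at 0.69 and 0.18, and none of these passed. Among the 35 livers, 7 of 23 rose and 1 fell in wildtype mice, beside 4.26% and 4.40% of genes. In knockout mice 5 rose and 1 fell, beside 9.69% and 7.50%. Srebf1, Scd1, Acaca, Insig2 and Agpat2 rose and Insig1 fell (-0.65 and -0.81) in both genotypes, and Thrsp (1.69) and Pnpla3 (3.82) rose in wildtype mice.

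The enzymes around the ligand were tested as 2 lists. Of 8 tested genes that make long-chain polyunsaturated fatty acids or carry docosahexaenoic acid into lipids, 0 were called with every liver kept, beside 0.771% of all genes called higher in wildtype and 0% in knockout mice. In the fit of 35 livers 4 rose in wildtype and 5 in knockout mice, beside 4.26% and 9.69% of all genes. Mfsd2a, a transporter of lysophospholipids that hold docosahexaenoic acid, rose by 2.88 and 2.55 on the log2 scale. Agpat3 rose by 0.41 and 0.64, and Hsd17b4, a peroxisomal enzyme of the last step to docosahexaenoic acid, by 0.52 and 0.66. Fads2, a desaturase, was at 0.76 in wildtype (edgeR adjusted p = 0.0542) and rose by 0.94 in knockout mice. Elovl5 was at 0.90 and 1.20 and did not pass. Over the 28 livers 7 of 8 had a negative r with Adgrf1, and Hsd17b4 was the lowest at -0.54.

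None of the 7 tested genes of N-acylethanolamine metabolism passed in any of the 4 comparisons, with or without the 4 livers. Over all genes, 1.39% and 0.00654% were called between the diets in wildtype and knockout mice (8.66% and 17.2% without the 4 livers), and for 7 genes a count of 0 is near that background. Napepld, which releases N-acylethanolamines from their phospholipid precursor, was at 1.45 ± 0.287 CPM on chow and 2.04 ± 0.477 CPM on Western diet in wildtype mice (log2 fold change 0.49, edgeR adjusted p = 0.255). Faah, the hydrolase that breaks them down, was at 242 ± 30.2 and 258 ± 24.1 CPM (0.09). Gdpd3 was at -0.48, Gde1 at 0.13, Gdpd1 at -0.21 and Abhd4 at 0.04. Napepld had the lowest r with Adgrf1 in this list, -0.47.

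Of 29 tested genes of G proteins and cyclic AMP signalling, 0 were called with every liver kept, beside 1.39% of all genes in wildtype and 0.00654% in knockout mice. In the fit of 35 livers, 1 was called in wildtype and 6 in knockout mice, beside 8.66% and 17.2% of all genes, so the knockout count is near the background. Pde4c, a phosphodiesterase that degrades cyclic AMP, was at 47.4 ± 18.8 and 33.1 ± 8.29 CPM in wildtype mice (-0.52, edgeR adjusted p = 0.273). In the 35 livers Pde4c fell by 0.75 in wildtype and by 0.90 in knockout mice and was the single gene of the list called in wildtype mice. In knockout mice Gnas, which encodes Gs itself, rose by 0.75, Gna12 by 0.71, Gna13 by 0.45, Prkaca by 0.31 and Pde3b by 0.52. In wildtype mice these genes were at 0.28, 0.47, 0.16, 0.15 and 0.41, and a difference between the genotypes was not called for any gene in the interaction test. Pde4a was at 0.52 and Creb1 at -0.24 in wildtype mice with every liver kept.

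**Figure D4:**
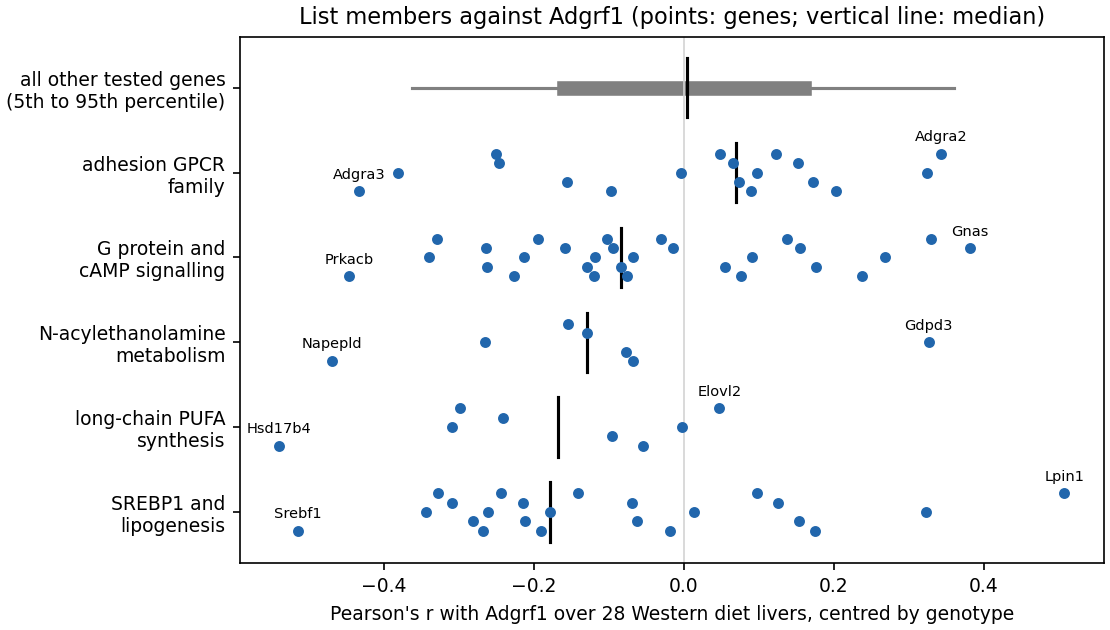
Pearson's r with Adgrf1 over 28 Western diet livers, centred by genotype, for the tested members of 5 gene lists. Points are genes, black lines are list medians, the grey line and bar are the 5th to 95th and 25th to 75th percentiles of all other tested genes, and the lowest and highest member of each list are named. The median is -0.18 for SREBP1 and lipogenesis, -0.17 for long-chain PUFA synthesis and -0.13 for N-acylethanolamine metabolism. It is -0.083 for G protein and cAMP signalling, 0.069 for the adhesion GPCR family and 0.0043 for all other genes.

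No other adhesion receptor was called lower than on chow with every liver kept. Of the 29 other family genes looked up, 18 were tested and 11 were too low, among them its relatives Adgrf2, Adgrf3 and Adgrf4. The count was 0 of 18 in each genotype, in either direction, beside 1.39% of all genes called in wildtype and 0.00654% in knockout mice, so it is near the background. The knockout share is 1 gene, Adgrf1 itself, which was chosen by this contrast. Adgrv1, a very large adhesion receptor, went from 7.85 ± 7.80 on chow to 37.7 ± 28.8 CPM on Western diet in wildtype mice and did not pass (2.26, edgeR adjusted p = 0.111). Its knockout means were 27.8 ± 40.1 and 47.0 ± 28.6 CPM. Among the 35 livers Adgrv1 rose by 3.02 and 2.703, and Adgrl1, a latrophilin, fell by 0.53 and 0.73. Celsr1, of planar cell polarity, and Adgra3 rose in knockout mice by 0.75 and 0.57 and were at 0.62 and 0.24 in wildtype mice. With every liver kept, Celsr1 was at 0.63, Adgra3 at 0.20, Adgre1, the macrophage marker F4/80, at 0.50, Adgrg2 at -0.66 and Adgrl1 at -0.30 in wildtype mice.

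The tested genes next to Adgrf1 on chromosome 17 did not pass the test between the diets in either genotype. Over all genes, 1.39% were called in wildtype and 0.00654% in knockout mice (8.66% and 17.2% without the 4 livers). For so few genes the lack of a call is near that background. In the GENCODE order, which was used for names alone, 0 annotated genes overlap Adgrf1. Adgrf5, the next gene on the same strand and a receptor of the same subfamily, was at 29.7 ± 1.78 and 26.3 ± 6.82 CPM in wildtype mice (-0.17, SE 0.17, edgeR adjusted p = 0.630). Tnfrsf21, the gene before it, was at 7.73 ± 2.98 and 7.73 ± 2.76 CPM (-0.0075), and Cd2ap was at 36.1 ± 5.27 and 33.3 ± 2.31 CPM (-0.12). In knockout mice the changes were -0.43, 0.40 and -0.16. In the fit of 35 livers Adgrf5 was at -0.20 in wildtype and -0.47 in knockout mice, Tnfrsf21 at 0.18 and 0.46 and Cd2ap at -0.04 and -0.18, and none passed. Their r with Adgrf1 was 0.065, 0.21 and -0.16. Adgrf2, Mep1a and Ankrd66, the other neighbours, had 51, 13 and 6 counts over all 39 livers and were not tested.

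**Figure D5:**
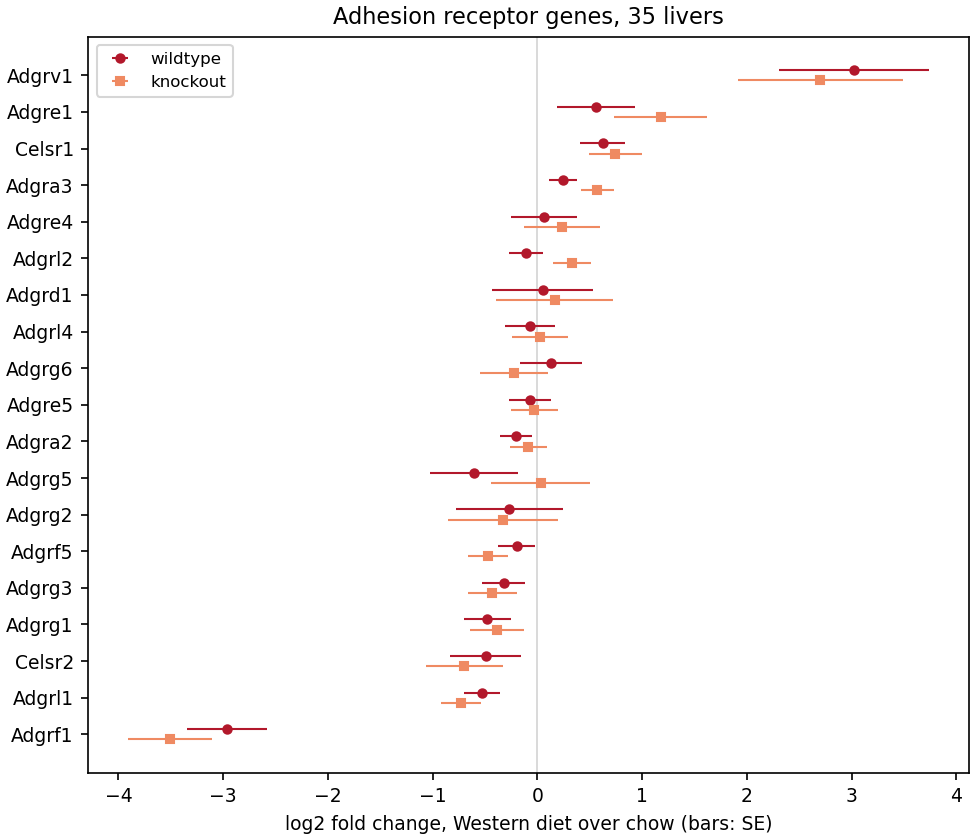
Fitted log2 fold change of Western diet over chow, with its SE, for Adgrf1 and 18 other adhesion receptor genes in the fit of 35 livers without the 4 that stood with the other diet; circles are wildtype and squares knockout mice. Adgrf1 is at -2.96 and -3.51, Adgrl1 at -0.53 and -0.73 and Adgrv1 at 3.02 and 2.703.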

How the data were processed

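Liver RNA of 39 mice was sequenced in paired ends after the NEBNext Ultra kit, per the labels' protocols. The values the authors deposited are raw counts per gene. Per the submitters' processing notes, STAR 2.7.8a and featureCounts 2.0 were used with GRCm39. The annotation release and strand setting are not given in the sources used here. Symbols were taken from GENCODE M21 and matched 52083 of 55416 identifiers, which hold 99.4% of the counts.

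Genes were kept by filterByExpr (minimum count 10, minimum total 15). With TMM scaling, edgeR 4.0.16 (R 4.3.3) fitted a quasi-likelihood model of the 4 groups to the 39 libraries together, with Benjamini-Hochberg adjustment over all tested genes and a threshold of 0.05. The SE is the one implied by the F statistic. CPM are TMM-scaled, and log2 values add a prior count of 2. Permutation tests are 2-sided, exact for chow and with 100000 resamples elsewhere (scipy 1.17.1). As a check of the code, the model was run on simulated counts and the relation test on simulated normal values. The normal values do not carry the low counts of Adgrf1 on Western diet, and no outcome is given here. Replicate letters were not used as pairs: same-letter libraries had mean correlations of -0.0656 (4 chow pairs) and -0.0104 (15 Western diet pairs). The most similar libraries, L and M of the wildtype Western diet group, differed by a chi-square of 3.97 per gene where sampling noise gives 1. The next closest pair within a group, B and C of the knockout Western diet group, was at 10.4. L and M thus stand out as alike, and were kept as 2 mice by their labels. Whether they are independent was not tested.

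The gene, its partners and the lists were chosen with earlier results of these data known. Named genes are Adgrf1, Scd1, Srebf1, Cd163, called members of the lists, up to 6 further members of each pathway list with the smallest p in the wildtype diet comparison, 3 protein-coding neighbours on each side, and the 6 highest and 6 lowest r over Western diet livers. Mlxipl and Lpin1, Cela1 and Lrp2, and other members at the ends of a list were named after their values were seen. The alternatives were RLE scaling, DESeq2 1.42.0, limma 3.58.1 voom with a quality weight for each library, no filter, the replicate block and only the compared groups. Further ones were the fit without 4 libraries, each chow library left out, other prior counts and, added after seeing the data, depth taken out. The values of 1 called list member are not reported here.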

Additional observations from a re-analysis of the deposited data

Results flagged for a closer look

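Adgrf1 in wildtype chow A was at -0.225 log2 CPM, far below the other 4 wildtype chow livers (2.52 to 3.43). In knockout chow D it was at -0.361, far below the other 3 knockout chow livers (3.19 to 3.77). The gap to the nearest liver was 0.750 and 0.861 of the group's range, where the 95% critical values are 0.710 and 0.829. Chance alone marks about 1 in 20 groups in this way. Both are livers whose diet scale values, 0.913 and 0.986, lie among the Western diet livers.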

How the results depend on the processing

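Adgrf1 was lower on Western diet under every alternative fitted. With 1 chow library left out its fitted change lay between -2.80 and -2.20 in wildtype and between -3.22 and -2.55 in knockout mice, and with the replicate block it was -2.92 and -3.24. The genotype difference passed in no alternative. On Western diet it turned to -0.30 (adjusted p = 0.968) with limma voom, was 0.0070 with the replicate block, and lay between 0.234 and 0.240 with 1 chow library left out. On chow it lay between 0.273 and 0.935 with 1 library left out and was 0.32 with the replicate block. The cause of the turn was not tested. The block left 50 genes called between the diets in wildtype mice against 212, and 0 against 1 in knockout mice. Across all genes, no filter left 44 and 0, limma voom called 1020 and 804, and DESeq2 504 and 227.

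Over the 5 lists, 3 members were called between the diets in wildtype and 0 in knockout mice. The wildtype count was 0 with no filter, 15 without the 4 libraries, 11 with limma voom, 10 with DESeq2 and 0 to 9 with 1 chow library left out, 0 without wildtype B and 9 without wildtype A. The knockout count was 21 without the 4 libraries, 10 with limma voom, 2 with DESeq2 and 0 to 11 with 1 left out, 11 without knockout D. Cd163 on chow lost its call with limma voom (-3.81, adjusted p = 0.451).

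The r of Adgrf1 with Srebf1 in knockout livers lay between -0.75 and -0.64 with any 1 liver left out and passed unadjusted in each alternative run. In wildtype livers it lay between -0.74 and -0.44, and was -0.44 without A and -0.56 without A, I and J. With Scd1 in wildtype livers it lay between -0.72 and -0.44, and was -0.45 without A, -0.27 without A and C, -0.16 without A, C and N, and -0.453 with depth taken out over all 15 livers. With Scd1 in knockout livers it lay between -0.65 and -0.35, and was -0.35 without M, -0.15 without H and M, -0.11 without H, L and M, -0.47 with a prior count of 0.5 and -0.48 as rho. Adgrf1 on Western diet rests on 0 to 66 counts a liver, which limits the precision of every value there.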

Other observations

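Among the 14 wildtype Western diet livers without A, Adgrf1 had the r of -0.79 with log2 total count, and 5 of the other 15295 genes (0.0327%) were as low or lower, at a median of 0.0099 over all genes. Its raw counts there stayed between 7 and 28 while the totals ran from 11021915 to 18909180. In the 14 knockout livers, 61.0% of genes were as low as Adgrf1 or lower. The pattern was noticed in these data and its cause was not tested.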
